A study of Homo sapiens with 6 samples.

Results

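The proteasome genes of A498 cells were compared between a knockdown of the receptor tyrosine phosphatase PTPRZ1 and its control. The genes were the protein-coding rows of the count table whose symbol begins with PSMA, PSMB, PSMC, PSMD, PSME, PSMF or PSMG followed by a number, which 50 of the 61860 genes in the table meet. Of these, 48 encode subunits, activators, the inhibitor or assembly chaperones of the proteasome. The other 2, PSMC3IP and PSME3IP1, carry the symbol of an interacting protein and are kept apart. A498 is an established human cell line from a kidney carcinoma. RNA of 3 control libraries (PTPRZ_nc) and 3 knockdown libraries (PTPRZ_Si) was sequenced, all from cells grown in MEM with 10% fetal bovine serum and all labelled as transfected. By their labels the control stands for a plasmid-based knockdown and the treated group received siRNA, so, taken as labelled, the vehicle and the knockdown cannot be told apart.

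The proteasome is the barrel-shaped protease that degrades proteins tagged with ubiquitin. Its 20S core stacks rings of alpha subunits, which gate the entrance, around rings of beta subunits, some of which carry the proteolytic sites. The 19S particle caps the core: its base holds a ring of ATPases that unfolds the substrate and receptors that catch ubiquitin, and its lid holds the enzyme that takes the ubiquitin chain off. Other caps, such as PA28 and PA200, open the core without ubiquitin, and dedicated chaperones put core and cap together. In human cells the subunit genes are known to be raised together by the transcription factor NFE2L1 when proteasome activity is short.

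Total counts per library ran from 13726908 to 21469746, and the members together took 0.499% to 0.519% of them. PTPRZ1 had 0 counts in each of the 6 libraries, so its knockdown could not be checked in these counts, and RNF26, the ubiquitin ligase in the series title, was lower (log2 fold change -0.25, adjusted p = 0.0128 in edgeR's quasi-likelihood test). The labels do not say that the libraries came from separate cultures, so p-values measure only the spread between libraries, which may be technical. Of 8 markers of kidney carcinoma cells, all were counted, with a summed level of 5252 to 5469 CPM, counts scaled to library size, in the control and 5555 to 5683 in the knockdown. The sum holds changes in opposite directions: PAX8 was 1.77-fold and CDH6 2.08-fold higher, and VIM was at 0.667 times the control (edgeR adjusted p = 1.81e-09, 2.46e-09 and 8.69e-09). Of 4 leucocyte markers, PTPRC and CD3E were at 0 in every library, and the sum was 0.373 to 0.804 CPM in the control and 0.912 to 1.32 in the knockdown. The 3 endothelial markers summed to 0.935 to 1.01 and 1.36 to 1.603 CPM, with CDH5 at 0. The 3 fibroblast markers, nearly all of it COL1A1, summed to 31.4 to 41.7 CPM in the control and 21.6 to 23.6 in the knockdown, and the part of these markers in the results below was not tested. In bulk RNA, fewer cells of a type and less RNA per cell cannot be told apart. Control replicate 2 stood further from the other controls (chi-square per degree of freedom of 5.25 and 6.23) than those did from each other (2.67), and calls of members that changed without it are given beside their values.

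Of the 48 proteasome genes, 43 had at least 100 counts over the 6 libraries, and the same 43 passed the filter on low counts and were tested. The other 5 are treated as not counted. PSMA8, the alpha subunit of the testis, and PSMB11, the beta subunit of the thymus, had 0 counts, which allows up to 3 counts over the 6 libraries by counting error alone. PSMB3, a constitutive core subunit, had 2 counts, and the immunoproteasome subunits PSMB8 and PSMB9 had 2 and 3. For PSMB3, PSMB8 and PSMB9 the 6 nearest protein-coding genes were each under 100 counts as well: PIP4K2B, 1458 bases from PSMB3, had 4 counts, and TAP1, which encodes the peptide transporter of antigen presentation next to PSMB8, had 3. Around PSMA8 none of the 6 neighbours was under 100 counts, and around PSMB11 1 was. The low values of PSMB3, PSMB8 and PSMB9 are therefore shared by their neighbourhoods in the table and do not show that these genes are silent. PSMB8 and PSMB9 are neighbours of each other and share TAP1 and TAP2, so theirs is a single region. Whether the genes of these regions are silent in the cells was not tested.

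The proteasome genes were close to level between the groups. At an adjusted p of at most 0.05, 4 of the 43 tested members were higher in the knockdown (PSMA4, PSMD8, PSMG1 and PSMG3) and 5 were lower (PSMA7, PSMC3, PSMD2, PSMF1 and PSMG4), with edgeR's quasi-likelihood test and Benjamini-Hochberg adjustment over all 15476 tested genes. That is 9.3% higher and 11.6% lower, beside 14% and 13.4% of all tested genes and 27.4% in either direction. The median log2 fold change of the members was -0.01, beside 0.001 for all genes. Control and knockdown libraries were apart in 16 of the 43 members (37.2%), beside 40.8% of all tested genes. Of the members, 41 of 43 differed by less than 1.25-fold (95.3%, beside 72.9% of all tested genes), and the median size of the difference was 1.06-fold beside 1.13-fold. The members were also more strongly counted than most genes, with a median mean of 114 CPM beside 21.5, and the part of depth in that spread was not tested. The 95% interval of the fold change lay within 1.25-fold in either direction for 36 members and within 1.5-fold for 41. The members' summed level was 5137 ± 39.1 CPM in the control and 5073 ± 74.2 CPM in the knockdown (SD, n = 3 each), a ratio of 0.988, with overlapping libraries.

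**Figure D1:**
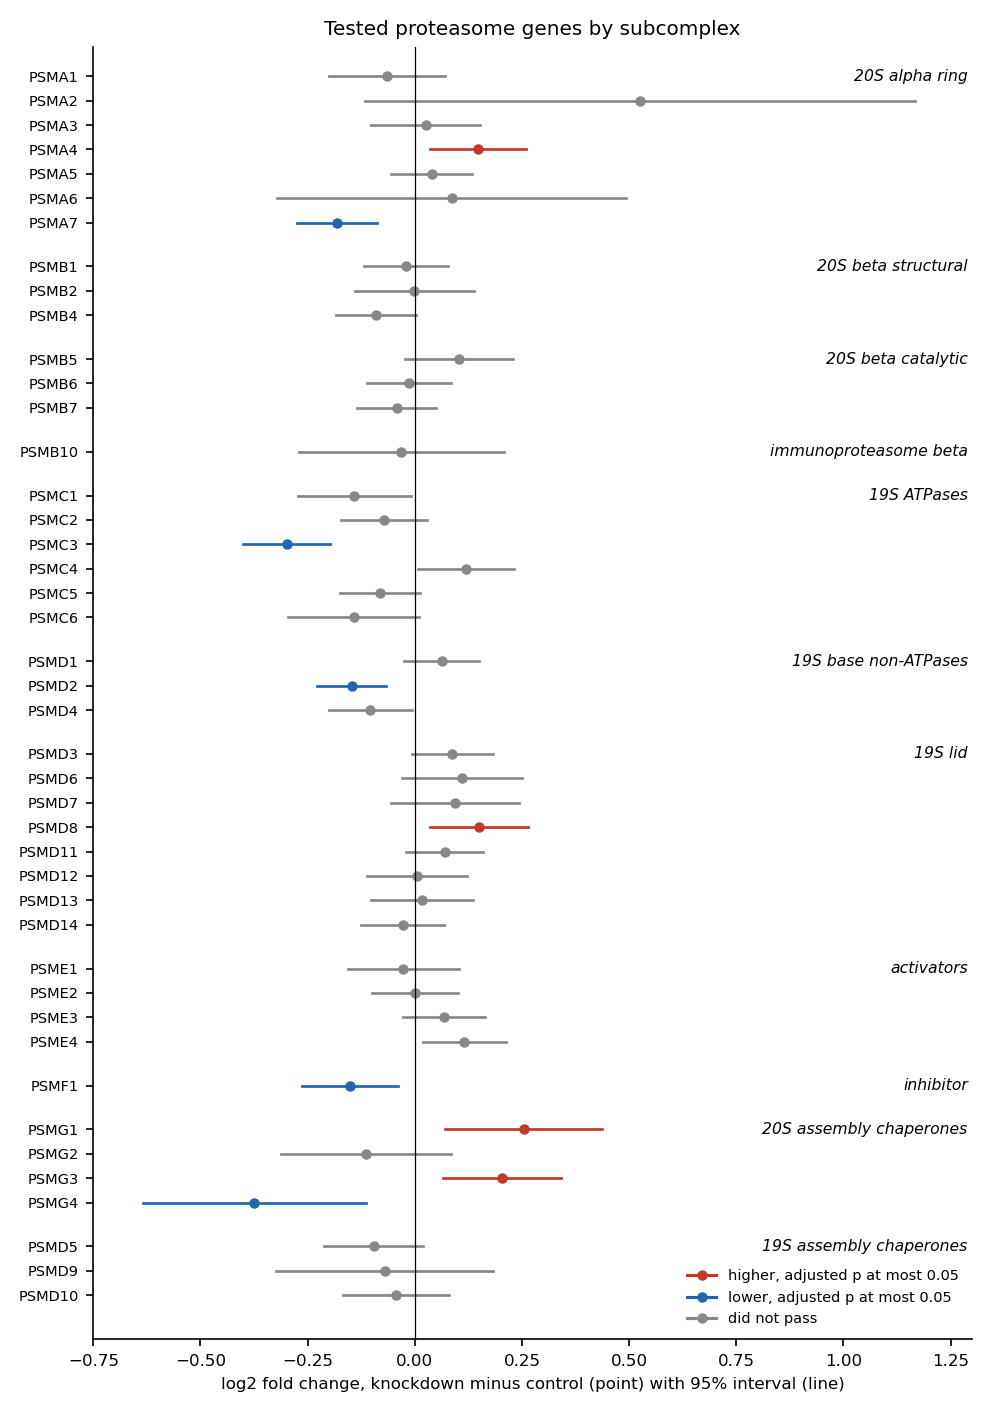
Log2 fold change (knockdown minus control) of the 43 tested members, grouped by subcomplex. Points are edgeR estimates and lines their 95% intervals, in red for the 4 members that passed as higher, blue for the 5 that passed as lower and grey for the rest. Most points lie close to 0, and PSMA2 and PSMA6, the 2 members with the fewest counts, have the widest intervals.

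The calls differed in how firmly they held. PSMA7, PSMC3 and PSMD2 passed in each of the 14 alternative analyses, which change the scaling, the filter, the test, the replicate block or the libraries used. The other 6 passed in 4 to 10 of them: PSMG3 in 10, PSMA4 and PSMG4 in 7, PSMG1 in 6, PSMF1 in 5 and PSMD8 in 4. Leaving out 1 library moved the number of members called from 9 to 4 without control replicate 1, 4 without control replicate 3, 3 without knockdown replicate 1, 3 without knockdown replicate 2 and 6 without knockdown replicate 3, all of them among the 9. Without control replicate 2, 11 members were called, 6 of them among the 9.

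Promoter windows from 250 bases before to 50 bases after the transcript start were available for 42 of the 48 genes (51 windows, RefSeq, build GRCh38.p14). PSMA7, PSMB1, PSMB6, PSMB7, PSMD4 and PSMG3 had none. The antioxidant response element is the DNA element that NFE2L1 and its relative NFE2L2 are known to bind with small MAF proteins. Its core was searched on both strands as TGACNNNGC and, in the less strict form, TGAGNNNGC. The first form was in a window of 15 of the 42 genes (35.7%, beside 16.1% of all 27305 genes with windows), the second in 13 (31%, beside 21.6%) and either in 22 (52.4%, beside 33.7%). The 27305 genes were not limited to protein-coding genes, of which the count table holds 19862. They were not matched to the members in level, base composition or number of windows, so the shares are of unlike sets. A match describes the letters in the window and shows neither binding nor a cause. The windows of 3 of the members that rose, PSMG1, PSMA4 and PSMD8, and of the 2 members of the 19S base that fell, PSMC3 and PSMD2, are printed because these members moved in opposite directions. They run 5′ to 3′ along the gene, with matches on either strand in capitals.
PSMG1, chr21:39183402-39183701, minus strand: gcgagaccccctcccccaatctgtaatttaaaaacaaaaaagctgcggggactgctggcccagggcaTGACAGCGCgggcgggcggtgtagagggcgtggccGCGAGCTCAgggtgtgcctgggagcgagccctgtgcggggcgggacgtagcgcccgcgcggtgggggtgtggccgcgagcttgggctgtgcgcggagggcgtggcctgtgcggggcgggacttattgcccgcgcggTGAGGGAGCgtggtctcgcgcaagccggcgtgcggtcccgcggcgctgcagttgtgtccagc
PSMA4, chr15:78540536-78540835, plus strand: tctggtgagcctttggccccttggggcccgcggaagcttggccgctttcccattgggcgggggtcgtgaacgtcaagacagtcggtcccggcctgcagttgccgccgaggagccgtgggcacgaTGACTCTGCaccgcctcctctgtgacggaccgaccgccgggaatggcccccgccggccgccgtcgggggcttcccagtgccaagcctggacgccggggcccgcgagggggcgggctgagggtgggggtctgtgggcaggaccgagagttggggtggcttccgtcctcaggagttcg
PSMD8, chr19:38374321-38374620, plus strand: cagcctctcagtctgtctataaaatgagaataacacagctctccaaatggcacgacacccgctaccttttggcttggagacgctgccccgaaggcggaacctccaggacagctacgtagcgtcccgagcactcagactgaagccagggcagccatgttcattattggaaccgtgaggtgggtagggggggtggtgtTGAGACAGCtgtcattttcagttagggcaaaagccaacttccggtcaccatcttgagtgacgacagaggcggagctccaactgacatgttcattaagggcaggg
PSMC3, chr11:47426390-47426689, minus strand: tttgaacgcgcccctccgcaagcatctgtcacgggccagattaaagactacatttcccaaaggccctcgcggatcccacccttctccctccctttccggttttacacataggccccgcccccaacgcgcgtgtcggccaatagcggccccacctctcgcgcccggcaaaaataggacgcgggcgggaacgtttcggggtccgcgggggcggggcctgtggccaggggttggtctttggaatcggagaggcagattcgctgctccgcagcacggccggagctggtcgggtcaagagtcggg
PSMD2, chr3:184298991-184299290, plus strand: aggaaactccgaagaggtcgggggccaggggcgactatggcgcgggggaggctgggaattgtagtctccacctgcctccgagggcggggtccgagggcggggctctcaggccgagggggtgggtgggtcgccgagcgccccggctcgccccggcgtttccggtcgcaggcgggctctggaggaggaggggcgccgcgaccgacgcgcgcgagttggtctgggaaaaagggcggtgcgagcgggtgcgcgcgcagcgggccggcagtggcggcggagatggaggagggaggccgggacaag
PSMG1 had 3 matches, 1 of the first form and 2 of the second, PSMA4 had 1 of the first form in 1 of its 3 windows, and PSMD8 had 1 of the second. For PSMA4 only the window with the match is printed, and its other windows had no match. PSMC3 and PSMD2 had none, nor did PSMF1 and PSMG4, the other members with a window that fell. A further window of PSMD2, not printed, also had no match. Of the 30 members with a window that did not pass, 17 held either form. By the first form alone, the 13 tested members with it had a median log2 fold change of 0.01 with 8 above 0, and the 24 without it -0.01 with 11 above 0. Over the 20 tested members with either form the median log2 fold change was 0.02 and 13 were above 0. Over the 17 without, the median was -0.07 and 6 were above 0. The motif was chosen with the calls known, so these values are a description.

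In the alpha ring of the 20S core, which gates the entrance to the proteolytic chamber, 7 of 8 genes were tested. Of these, 1 rose and 1 fell, beside 14% higher and 13.4% lower of all tested genes. PSMA7 (GRCh38 chromosome 20 from 62136735 to 62143440, minus strand) was at 199, 207 and 194 CPM in control replicates 1, 2 and 3 and at 175, 181 and 173 CPM in knockdown replicates 1, 2 and 3. Every knockdown library was below every control library, and PSMA7 fell by 11.9% (log2 fold change -0.18, SE 0.0439, edgeR adjusted p = 0.0049, range over the alternatives 0.00123 to 0.0346). PSMA4 (chromosome 15 from 78540405 to 78552419, plus strand) was at 133, 137 and 132 CPM in the control and at 152, 157 and 136 CPM in the knockdown. Knockdown replicate 3 lay within the controls, while the other 2 lay above them, and PSMA4 passed as higher by 10.8% (log2 fold change 0.15, SE 0.053, edgeR adjusted p = 0.0474, alternatives 0.0124 to 0.243). PSMA2 had the highest fold change of the ring but only 214 counts over the 6 libraries, at 0.876, 1.83 and 2.19 CPM in the control and 2.30, 2.69 and 2.06 in the knockdown. Its groups overlapped, it did not pass (edgeR adjusted p = 0.222), and its 95% interval ran from 0.922 to 2.25 times the control. PSMA1, PSMA3, PSMA5 and PSMA6, the other constitutive alpha subunits, had log2 fold changes from -0.07 to 0.09 and did not pass. A readthrough gene on the same strand covers 14.6% of the exon bases of PSMA2, merged over its transcripts. Another covers 14.1% of those of PSMA6, which had 543 counts. A same-strand gene also covers 24.7% of the exon bases of PSMA1. The shared bases number 781, 919 and 814 for PSMA2, PSMA6 and PSMA1, beside principal transcripts of 1487, 1029 and 1505 bases. How many of them lie in the principal transcripts was not tested, so the loss could be larger than these percentages. The overlaps are from another gene annotation than the counting. Read pairs in shared exons could not be given to either gene.

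The proteolytic beta subunits did not pass. PSMB5, the chymotrypsin-like subunit that bortezomib blocks, was at 111, 121 and 102 CPM in the control and at 122, 124 and 113 CPM in the knockdown. Its groups overlapped, with control replicate 2 among the knockdown libraries (fold 1.07, 95% interval 0.984 to 1.17, edgeR adjusted p = 0.222). It passed as higher in 2 of the 14 alternatives, without control replicate 2 (log2 fold change 0.16 in place of 0.10, edgeR adjusted p = 0.0166) and without both libraries numbered 2. PSMB6, the caspase-like subunit, was at 135, 129 and 128 CPM in the control and 127, 134 and 127 CPM in the knockdown. PSMB7, the trypsin-like subunit, was at 249.5, 232 and 252 CPM in the control and 242, 239 and 232 CPM in the knockdown. Both overlapped between the groups, with 95% intervals of 0.925 to 1.06 and 0.911 to 1.04 times the control. The summed level of the 3 catalytic subunits was 487 ± 7.06 and 486 ± 13.4 CPM (SD, n = 3 each).

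Among the beta subunits without a proteolytic site, PSMB1, PSMB2 and PSMB4 were tested and none passed. PSMB2 was at 177, 147 and 176 CPM in the control and 162, 180.3 and 158 CPM in the knockdown. Control replicate 2 was the lowest of all 6 libraries and knockdown replicate 2 the highest, and the fold change was 0.999 (95% interval 0.907 to 1.10). PSMB4 was at 271, 248 and 260.5 CPM in the control and 237, 251 and 244 CPM in the knockdown, with control replicate 2 among the knockdown libraries (fold 0.939, edgeR adjusted p = 0.144). PSMB4 passed as lower in 2 of the 14 alternatives, without control replicate 2 (log2 fold change -0.12 in place of -0.09, edgeR adjusted p = 0.017) and without both libraries numbered 2, and PSMB2 in the latter only. PSMB1 had a fold change of 0.986 and did not pass. PSMB10, the immunoproteasome subunit that takes the place of PSMB7, was the only counted member of the inducible beta subunits, at 19.7, 23.8 and 18.5 CPM in the control and 17.4, 19.2 and 23.2 CPM in the knockdown. Its groups overlapped (fold 0.978, 95% interval 0.829 to 1.15). A readthrough gene on the same strand covers 34.8% of its exon bases.

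In the 19S base, 2 of 9 members fell and none rose, beside 13.4% lower and 14% higher of all tested genes. PSMC3 (GRCh38 chromosome 11 from 47418769 to 47426473, minus strand), an ATPase of the ring that pulls substrates into the core, was at 150.4, 154 and 139.9 CPM in the control and at 119, 121 and 122 CPM in the knockdown. The knockdown libraries lay close together and below every control library. PSMC3 fell by 18.7% (log2 fold change -0.30, SE 0.0482, edgeR adjusted p = 0.000177, range over the alternatives 9.4e-08 to 0.0027), and its adjusted p was the smallest among the members. PSMD2 (chromosome 3 from 184298709 to 184309054, plus strand), a large scaffold subunit that docks ubiquitin receptors, was at 486, 511 and 479.7 CPM in the control and at 443, 445 and 446 CPM in the knockdown. The groups were apart, and PSMD2 fell by 9.7% (log2 fold change -0.15, SE 0.0378, edgeR adjusted p = 0.00759, alternatives 0.00281 to 0.044).

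The other ATPases did not pass. PSMC1, PSMC2, PSMC5 and PSMC6 had log2 fold changes of -0.14, -0.07, -0.08 and -0.14, with the groups apart for PSMC1 and PSMC5. PSMC4 had the one positive value of the ring, with 118, 103 and 115 CPM in the control and 125, 121 and 120.1 CPM in the knockdown. Its groups were apart, and its log2 fold change was 0.12 (SE 0.0532, edgeR adjusted p = 0.109). PSMC1 shares 75.8% of its exon bases with NRDE2 on the opposite strand and has 13 annotated pseudogenes, and PSMC5 shares 19.5% with FTSJ3. The counting was set without strand, so read pairs in those stretches could not be told apart. PSMD1, a scaffold like PSMD2, was at 196, 205 and 204 CPM in the control and 208, 215 and 210.2 CPM in the knockdown, with groups apart (log2 fold change 0.06, edgeR adjusted p = 0.297). PSMD4, a ubiquitin receptor, had a log2 fold change of -0.10 with groups apart and did not pass (edgeR adjusted p = 0.108).

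In the lid, 1 of 8 members rose and none fell, beside 14% higher and 13.4% lower of all tested genes. PSMD8 (chromosome 19 from 38374536 to 38383824, plus strand), a structural lid subunit, was at 159.8, 139.5 and 153 CPM in the control and at 159, 176 and 167 CPM in the knockdown. Knockdown replicate 1 lay just under control replicate 1, so the groups overlapped. PSMD8 passed narrowly as higher by 10.9% (log2 fold change 0.15, SE 0.054, edgeR adjusted p = 0.0494, range over the alternatives 0.0285 to 0.348), and the call was lost in 10 of the 14 alternatives, also without control replicate 2 (log2 fold change 0.10, edgeR adjusted p = 0.121). PSMD14, the enzyme that removes ubiquitin chains from substrates, was at 156, 154 and 153 CPM in the control and 149, 159 and 146 CPM in the knockdown. It had the lowest log2 fold change of the lid, -0.03, with overlapping groups and a 95% interval of 0.917 to 1.05 times the control. PSMD3, PSMD6, PSMD7, PSMD11, PSMD12 and PSMD13 had log2 fold changes from 0.01 to 0.11 and did not pass. PSMD7, which pairs with PSMD14, shares 30.7% of its exon bases with an opposite-strand transcript, and in 1 of the 14 alternatives, without control replicate 2, it passed as higher (log2 fold change 0.17 in place of 0.09, edgeR adjusted p = 0.0457).

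Summed over members, the base was lower in every knockdown library, while the lid overlapped between the groups. The 9 members of the base summed to 1555, 1608 and 1534 CPM in the control and 1477, 1478 and 1456 CPM in the knockdown. The ratio of the group means was 0.939. The lid summed to 1046, 1008 and 1026 CPM in the control and 1043, 1103 and 1071 CPM in the knockdown, with a ratio of 1.04 and overlapping libraries. Within each library the summed CPM of the base was 1.487, 1.596 and 1.495 times that of the lid in the control. In the knockdown it was 1.42, 1.34 and 1.36 times. The groups were apart, also with control replicate 2, the highest, set aside. The mean of the base dropped by 95.8 CPM, and that of PSMC3 and PSMD2 together dropped by 75.8 CPM. Without them the other 7 members of the base summed to 919, 942 and 914 CPM in the control and 916, 912 and 888 CPM in the knockdown, and the groups overlapped. The 20S core summed to 1577 ± 25.4 and 1554 ± 44.1 CPM (SD, n = 3 each). The summed CPM of the 19S particle over that of the core was 1.64 ± 0.0362 in the control and 1.64 ± 0.029 in the knockdown. These sums are not divided by gene length, so the ratios compare the groups and not the amounts of the parts. ADRM1, a further subunit of the base, and SEM1, of the lid, do not meet the symbol rule and are not in these sums. ADRM1 was at 99.7 CPM in the control and 113 in the knockdown (log2 fold change 0.18, edgeR adjusted p = 0.0548). SEM1 was at 67.3 and 60.4 CPM (log2 fold change -0.15, edgeR adjusted p = 0.127). Both overlapped between the groups, did not pass, and went the other way from the sum of their part. No test was made of the sums, since their members were chosen with results of these data known.

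**Figure D2:**
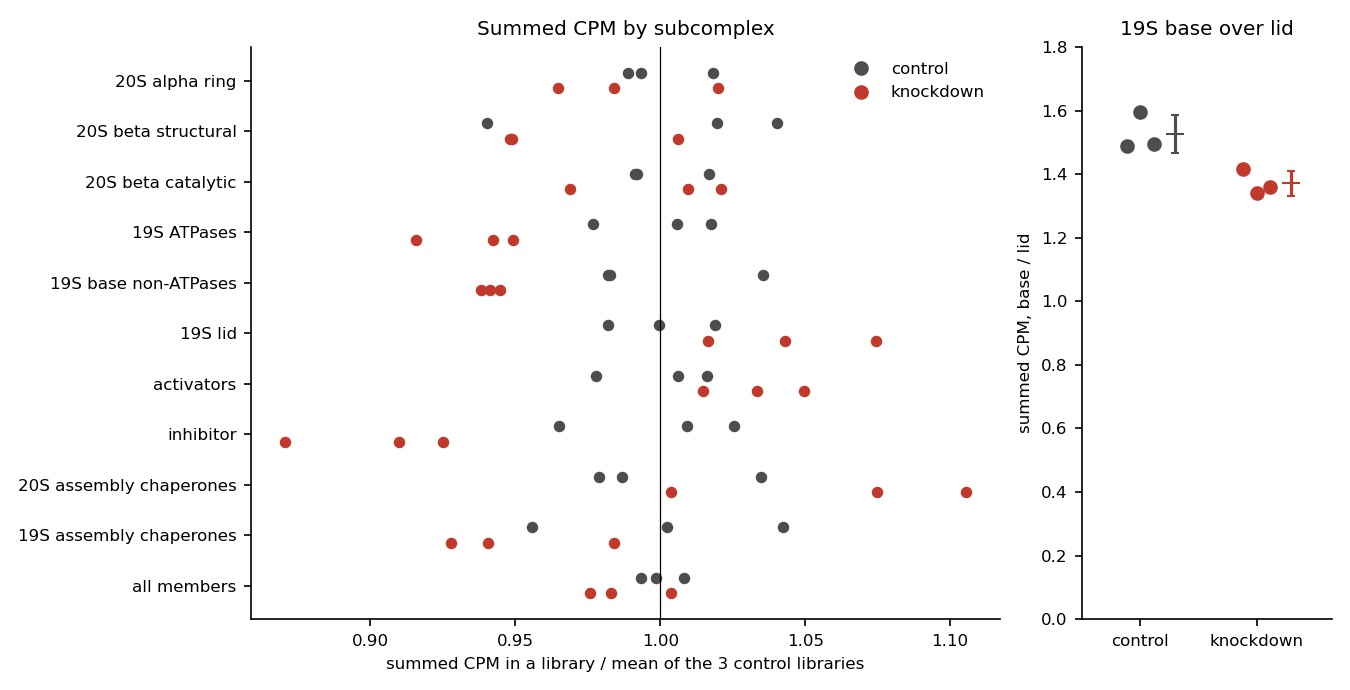
Left, the summed CPM of each subcomplex in each library, divided by the mean of the 3 control libraries, with control in grey and knockdown in red. Right, the summed CPM of the 19S base divided by that of the lid in each library, with the mean and SD. The knockdown libraries lie below every control for the ATPases, the base non-ATPases and the inhibitor, and the base over lid ratio is 1.34 to 1.42 in the knockdown and 1.487 to 1.596 in the control.

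None of the 4 activator genes passed. PSME1 and PSME2, which form the PA28 cap induced by interferon, were at 104.5, 121 and 102 CPM and 119.98, 116 and 112 CPM in the control. In the knockdown PSME1 was at 108, 111 and 103 CPM and PSME2 at 118, 114 and 116 CPM. Both overlapped between the groups, with 95% intervals of 0.897 to 1.07 and 0.933 to 1.07 times the control. PSME3, the nuclear PA28 gamma, was at 260.1, 237 and 244 CPM in the control and 263, 249 and 265 CPM in the knockdown (fold 1.05, edgeR adjusted p = 0.302). Its groups overlapped. PSME4, the PA200 cap of the nucleus, was at 107.01, 111 and 111 CPM in the control and 122, 117 and 118 CPM in the knockdown. Its 3 knockdown libraries were all above the controls, but it missed the threshold (log2 fold change 0.12, SE 0.0463, edgeR adjusted p = 0.0747, alternatives 0.0386 to 0.248). It passed in 3 of the 14 alternatives, among them without control replicate 2 (edgeR adjusted p = 0.0465).

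PSMF1 (chromosome 20 from 1113263 to 1189415, plus strand), the inhibitor PI31, was at 77.8, 74.4 and 79.1 CPM in the control and at 70.1, 67.1 and 71.3 CPM in the knockdown. The groups were apart, and PSMF1 fell by 9.93% (log2 fold change -0.15, SE 0.0532, edgeR adjusted p = 0.0436, range over the alternatives 0.0127 to 0.165). The call was lost in 9 of the 14 alternatives, among them the replicate block.

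Of the 4 chaperones that assemble the 20S core, 2 rose, 1 fell and 1 did not pass, beside 14% higher and 13.4% lower of all tested genes. The calls of PSMG1, PSMG3 and PSMG4 held in 6, 10 and 7 of the 14 alternatives. PSMG1 and PSMG2 form one chaperone pair of the alpha ring, and PSMG3 and PSMG4 the other. PSMG1 (chromosome 21 from 39174769 to 39183851, minus strand) was at 22.9, 21.6 and 22.0 CPM in the control and at 29.1, 27.0 and 23.6 CPM in the knockdown. All knockdown libraries were above the controls, knockdown replicate 3 by the least, and PSMG1 rose by 19.3% (log2 fold change 0.25, SE 0.0869, edgeR adjusted p = 0.0379, alternatives 0.0153 to 0.183). Its partner PSMG2 was at 30.7, 25.9 and 35.5 CPM in the control and 28.999, 29.5 and 27.2 CPM in the knockdown. Its controls spread across the knockdown libraries, and it did not pass (log2 fold change -0.11, edgeR adjusted p = 0.411, alternatives 0.0412 to 0.979). Control replicate 2 was the lowest of the 6 libraries for PSMG2, and without it PSMG2 passed as lower (log2 fold change -0.22, edgeR adjusted p = 0.0484), as it did without both libraries numbered 2 (-0.24, edgeR adjusted p = 0.0412). PSMG3 (chromosome 7 from 1567330 to 1571005, minus strand) was at 44.0, 49.2 and 46.8 CPM in the control and at 52.8, 56.7 and 51.3 CPM in the knockdown, with groups apart. It rose by 15.1% (log2 fold change 0.20, SE 0.0653, edgeR adjusted p = 0.0279, alternatives 0.00757 to 0.149). Its partner PSMG4 (chromosome 6 from 3231403 to 3303373, plus strand) was at 11.1, 11.0 and 9.66 CPM in the control and at 7.39, 8.496 and 8.467 CPM in the knockdown, again with groups apart. PSMG4 fell by 22.8% (log2 fold change -0.37, SE 0.124, edgeR adjusted p = 0.032, alternatives 0.0263 to 0.108). Without control replicate 2, PSMG1 and PSMG4 did not pass (edgeR adjusted p = 0.062 and 0.0595), while PSMG3 did. PSMG4 shares 13.3% of its exon bases with SLC22A23 on the opposite strand, which had 6984 counts beside 986 for PSMG4.

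The chaperones of the 19S base, PSMD5, PSMD9 and PSMD10, did not pass. PSMD5 was at 97.3, 93.4 and 104 CPM in the control and 91.3, 96.2 and 88.4 CPM in the knockdown. Its groups overlapped, and its log2 fold change of -0.10 was the lowest of the 3 (edgeR adjusted p = 0.212). Without both libraries numbered 2 it passed as lower (-0.17, edgeR adjusted p = 0.0194). PSMD10, also known as gankyrin, was at 69.6, 63.3 and 71.2 CPM in the control and 64.7, 68.4 and 65.2 CPM in the knockdown, with overlapping groups and a log2 fold change of -0.04. PSMD9 was in between at -0.07.

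**Figure D3:**
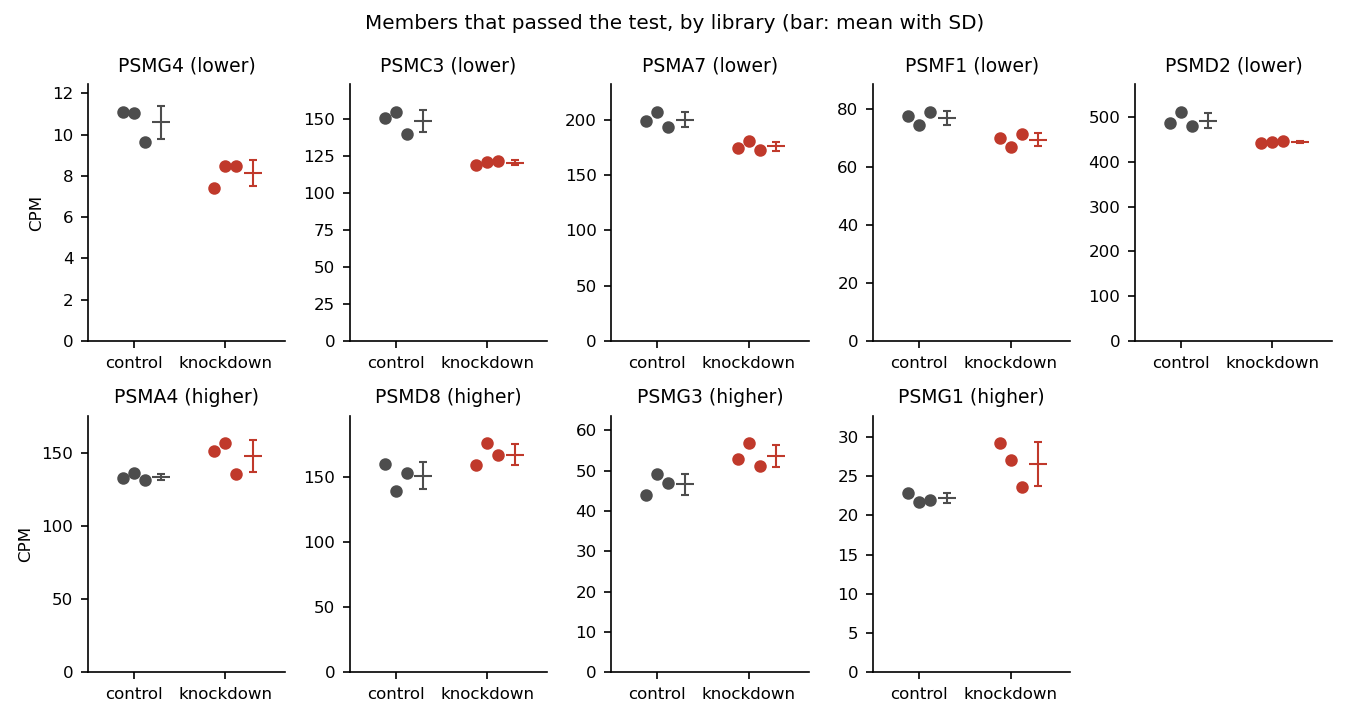
CPM of the 9 members that passed the test, 1 panel per gene in the order of the log2 fold change, with each point 1 library (grey control, red knockdown) and the bar the mean with SD (n = 3). Axes start at 0. The groups are apart in the panels of PSMG4, PSMC3, PSMA7, PSMF1, PSMD2, PSMG3 and PSMG1, and overlap for PSMA4 and PSMD8.

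Genes that act on the proteasome but carry no PSM symbol, such as its transcription factors, shuttles and ubiquitin enzymes, were read beside the subunits. Of 35 such genes, all tested, 6 were higher and 13 lower in the knockdown (17.1% and 37.1%, beside 14% and 13.4% of all tested genes), with a median log2 fold change of -0.09. Nearly all of them were counted above the median of all tested genes, 21.5 CPM, and the part of depth in these shares was not tested. With 1 library left out, the number lower was 9, 10 and 9 without control replicates 1, 2 and 3, and 7, 7 and 6 without knockdown replicates 1, 2 and 3. By class, 1 of 3 transcription factors and processing enzymes was higher and 2 lower, 5 of 18 shuttles and associated enzymes were higher and 5 lower, 2 of 4 genes of the p97 complex were lower, 3 of 6 genes of ubiquitin and its activating enzymes were lower, and 1 of 4 other subunits and assembly factors was lower.

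NFE2L1, the transcription factor known to raise proteasome subunits, was at 679, 681 and 679.5 CPM in the control and at 528, 528 and 537 CPM in the knockdown. Libraries within a group lay close together and the groups were far apart, and NFE2L1 fell by 21.8% (log2 fold change -0.36, SE 0.0342, edgeR adjusted p = 6.63e-07). Its relative NFE2L2, the regulator of the oxidative stress response, was at 198, 193 and 222 CPM in the control and 244, 261 and 259 CPM in the knockdown. The groups were apart, and NFE2L2 rose by 24.6% (log2 fold change 0.32, SE 0.0517, edgeR adjusted p = 0.000193). NGLY1, the glycanase that takes part in the maturation of NFE2L1, fell (log2 fold change -0.26, edgeR adjusted p = 0.0247). The call of NGLY1 held in 9 of the 14 alternatives and was lost with DESeq2, among others. NGLY1 is 1 of the 35 and was singled out here after its value was seen. POMP, the chaperone of core maturation, was at 80.5, 78.8 and 81.6 CPM in the control and 73.5, 84.4 and 83.4 CPM in the knockdown. It overlapped between the groups and did not pass (log2 fold change 0.005, edgeR adjusted p = 0.964).

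ZFAND5, a zinc finger protein that binds the 19S particle and stimulates it, was at 439, 412 and 432 CPM in the control and at 619.99, 632 and 598 CPM in the knockdown. It rose by 44.1% (log2 fold change 0.53, SE 0.0389, edgeR adjusted p = 3.12e-08), with groups far apart. UBA6, one of the enzymes that activate ubiquitin, was at 315, 329 and 322 CPM in the control and 233, 244 and 238 CPM in the knockdown. It fell by 26% (log2 fold change -0.43, SE 0.0402, edgeR adjusted p = 4.29e-07), again with groups apart.

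UBE3C, a ubiquitin ligase bound to the proteasome that extends chains on stalled substrates, was at 202, 187 and 180.03 CPM in the control and 229.9, 231 and 228 CPM in the knockdown, and rose by 20.9% (log2 fold change 0.27, SE 0.0468, edgeR adjusted p = 0.000307). NSFL1C, the p47 cofactor of the p97 unfoldase, was at 85.2, 84.0 and 82.3 CPM in the control and 70.7, 64.2 and 68.3 CPM in the knockdown, and fell by 19.3% (log2 fold change -0.31, SE 0.0538, edgeR adjusted p = 0.000344). In both the groups were apart. NFE2L1, NFE2L2, ZFAND5, UBA6, UBE3C and NSFL1C passed in each of the 14 alternatives.

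**Figure D4:**
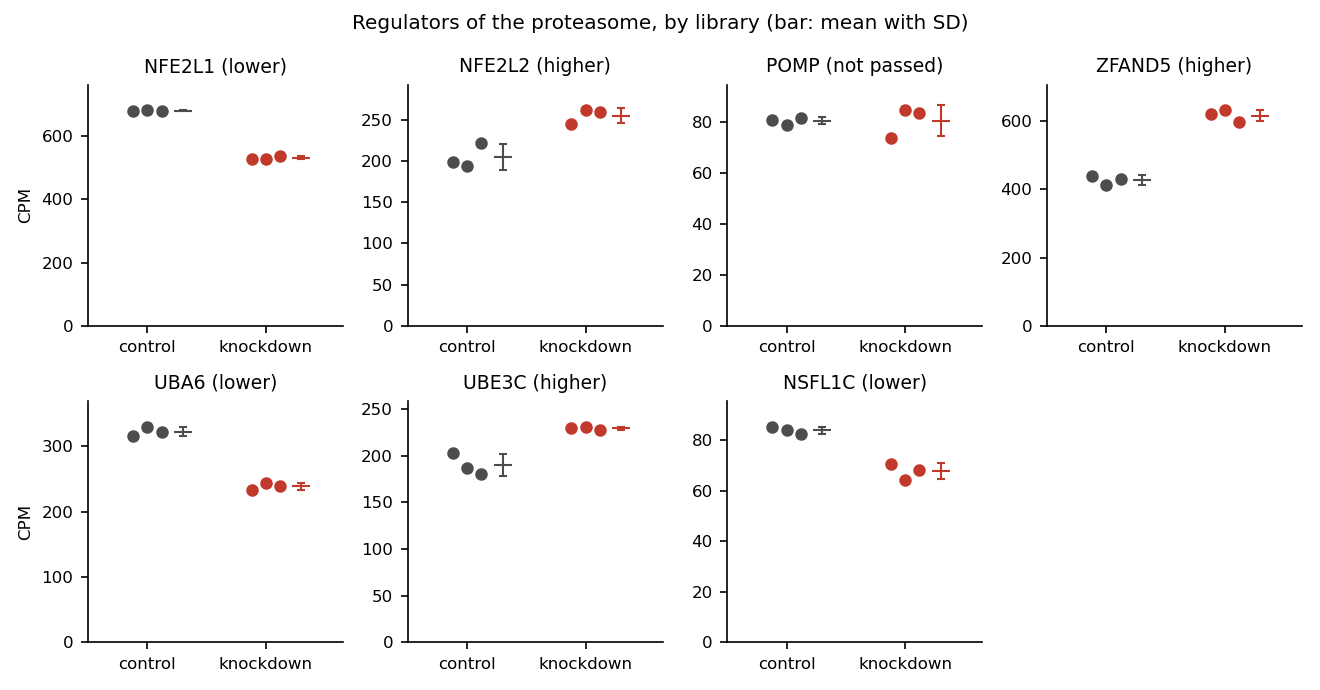
CPM of 7 regulators of the proteasome by library (grey control, red knockdown; the bar is the mean with SD, n = 3), on axes that start at 0. The groups are apart in every panel but that of POMP, with NFE2L2, ZFAND5 and UBE3C higher and NFE2L1, UBA6 and NSFL1C lower in the knockdown.

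Levels per length differed far more among the members than between the groups. On CPM per kb of merged exons (GENCODE 29), PSMB7, PSMB4 and PSMA7 were the highest in the control, at 137 ± 5.997, 120.3 ± 5.36 and 114 ± 3.85 (SD, n = 3). PSMB4 and PSMA7 do not differ beyond their spread. The 20S catalytic subunit PSMB6 and the base scaffold PSMD2 followed at 90.3 each. PSMA2, at 0.305, and PSMA6, at 0.751, were the lowest, although each is a constitutive subunit of the 20S core. What sets the low values of PSMA2 and PSMA6 was not tested. PSMG4 was at 1.02 and PSMD9 at 1.30. Over the length of the principal transcript in place of the merged exons, PSMB4, PSMB7, PSME3 and PSMA7 led, at 269, 249, 248 and 201, and PSMA2 was again the lowest, at 1.10. PSME3 moved from 12th to the third place and PSMD6 from 39th to 25th, so ranks in the middle depend on the length used.

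**Figure D5:**
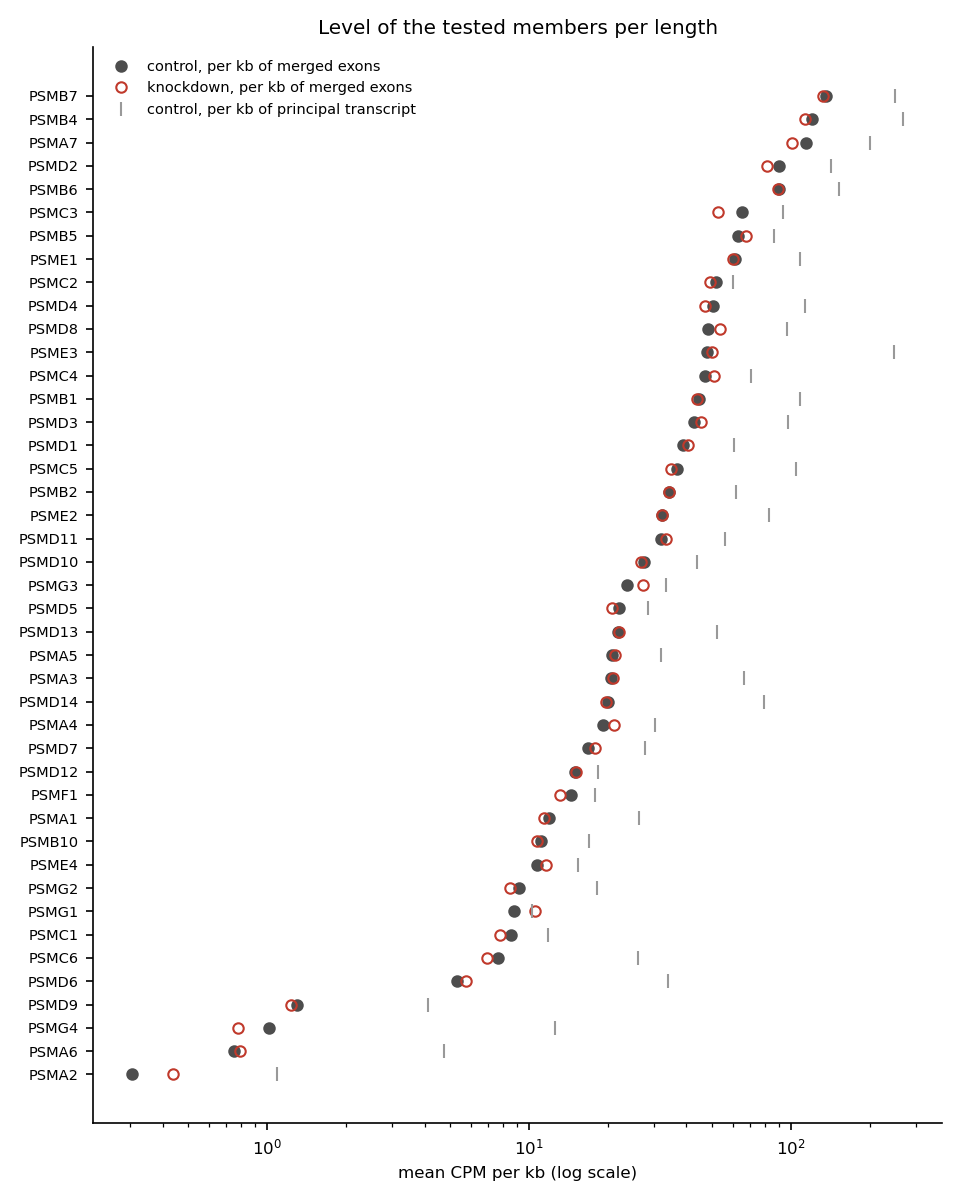
Mean CPM per kb of the 43 tested members on a log axis, ordered by the control level per kb of merged exons (grey). Open red circles are the knockdown on the same length, and ticks the control per kb of the principal transcript. The circles of most genes nearly coincide, least so for PSMA2, at 0.305 in the control and 0.440 in the knockdown. In the control the members span from 0.305 for PSMA2 to 137 for PSMB7.

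Of the 2 genes kept apart, PSMC3IP belongs to another process and PSME3IP1 binds an activator of the proteasome. PSMC3IP, a partner of the meiotic recombinase, was at 10.1, 11.3 and 8.48 CPM in the control and 6.27, 7.30 and 7.44 CPM in the knockdown. The groups were apart, and it fell by 29% (log2 fold change -0.49, SE 0.141, edgeR adjusted p = 0.0144). It shares 29.9% of its exon bases with MLX on the opposite strand. PSME3IP1, which binds PSME3, was at 65.0, 56.3 and 58.0 CPM in the control and 66.4, 68.4 and 64.9 CPM in the knockdown. Its groups overlapped, and it did not pass (log2 fold change 0.15, edgeR adjusted p = 0.0749).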

How the data were processed

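The authors deposited unnormalized counts (whole read pairs per gene). Per the file headers, these came from featureCounts 2.0.1 in paired mode over exons, with Ensembl release 107 of GRCh38 and no strand or multi-mapping option. The alignments are named hisat, and their version is not stated in the sources used. The build is hg38 per the submitters' processing notes.

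A gene name table gave symbols for 42054 of 61860 genes and GENCODE 29 for 16371 more, 3435 had none, and biotypes, coordinates and lengths are those of GENCODE 29. The table has no length column, so levels per length used these. Genes were filtered with filterByExpr, scaled by TMM (factors 0.9936 to 1.009) and tested in edgeR 4.0.16 (R 4.3.3) with glmQLFit and glmQLFTest on all 6 libraries, 2-sided. The 15476 genes tested held 99.82% of the counts, p-values were adjusted over them by Benjamini-Hochberg, and the threshold was 0.05. The variation beyond counting was 5.53%. CPM are scaled by TMM. The code was checked on simulated data. Alternatives were RLE and upper-quartile scaling, no filter, a mean of at least 5 CPM, DESeq2 1.42.0, limma-voom 3.58.1, a replicate block, each library left out, and, added after the data were seen, both libraries numbered 2 left out.

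Named with values per library were every called member, the catalytic subunits, the activators, PSMF1, the highest and lowest member of each subcomplex, NFE2L1, NFE2L2, POMP and the 8 called regulators with the smallest p. Some genes that meet this rule are not reported here. Members and lists were chosen with earlier results of these data known. No library was a copy of another: chi-square per degree of freedom was 2.19 to 6.23 within groups.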

Additional observations from a re-analysis of the deposited data

How the results depend on the processing

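No member or regulator that was called turned its direction under the alternatives. The number of members called higher, 4, became 1 with DESeq2, 2 with limma-voom and 0 to 5 with 1 library left out. The number called lower, 5, became 3 with DESeq2 and 3 to 6 with 1 library left out. Regulators called lower, 13, became 6 to 10 with 1 library left out. Without both libraries numbered 2, 3 members were higher and 7 lower, and 4 of these 10 were among the 9 called with all libraries. With the replicate number as a block, 3 members were higher and 4 lower, and 7 regulators higher and 10 lower. The labels do not say whether the numbers pair the libraries. Deviations of same-numbered libraries correlated at 0.0271, 0.0333 and 0.0226, and those of other control and knockdown libraries at -0.0234 to -0.00517. Each library thus correlated best with its own number, but values this small do not settle whether the libraries were paired. Leaving out a library leaves 2 in its group, and the number of all genes called then ran from 3182 to 4425, against 4243. Depth limits PSMA2 and PSMA6 most, with 214 and 543 counts and the widest intervals.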
